A study of Mus musculus with 34 samples.

Results

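Imprinted genes are expressed mainly from the copy inherited from 1 parent, and 37 such genes were followed here through the brains of newborn mice. Their probes were taken by the RefSeq accession that the array design gives each probe. Of the 37 genes, 36 were matched, with 61 of the 55681 probes of the array, and H19 was not matched. For 34 genes the lead probe, the probe of a gene detected in the most fractions, exceeded background clearly in 1 or more fractions of every series, and these 34 were tested among 34186 probes. Rtl1 was well above background in 1 fraction (coronal 4, at -3.59) and Phlda2 in 0 of 34, so neither was tested. Lead probes of 30 genes were detected in all 34 fractions.

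The fractions came from 3 male C57BL/6J mice of 3 days of age, and the labels name no treatment or transgene for any group. Mouse 1 gave 15 coronal fractions, mouse 2 gave 8 horizontal fractions and mouse 3 gave 11 sagittal fractions, each a slab 500 μm wide, except that sagittal fractions 1 and 11 each pooled 2 cut fractions. Each position was therefore measured in 1 mouse, and every test below sets positions of 1 brain against each other, so that its p-value measures the spread between positions and not between animals. Values are log2 normalized signal, the log2 signal of a probe less the 75th percentile of its array. Of 59305 spots per array, 29598 to 37091 were well above background, and repeat spots of a probe had a median SD of 0.057 to 0.104 on the log2 scale.

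An imprint is DNA methylation set in the egg or the sperm on CpG dinucleotides of a control region, which then keeps 1 parental copy of the neighbouring genes silent. Many imprinted genes lie in clusters that can hold both paternally and maternally expressed members. Several imprinted genes act in the hypothalamus on feeding, growth, body temperature and maternal care. The parental copy named for each gene below is background knowledge: an inbred strain carries the same sequence on both copies, so the arrays measured their sum. A fraction is also a whole slab of tissue, in which fewer cells of a type and less RNA per cell cannot be told apart.

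The start regions of genes that moved together are shown first. Peg3 and Usp29 lie head to head on chromosome 7, and the stretch between their outermost annotated starts (RefSeq, build GRCm38.p6, chr7:6730463-6730558, strand of Usp29) is 96 bases long. The other 5 stretches are the 250 bases before the outermost start of a pair of Prader-Willi cluster genes, of the pair Asb4 and Calcr, whose profiles were the most alike of all pairs, and of Nap1l5, the gene with the widest coronal span among those that peaked together in coronal fraction 4 outside the Peg10 cluster. They are Magel2 (chr7:62376729-62376978, + strand), Mkrn3 (chr7:62420154-62420403, - strand), Asb4 (chr6:5383136-5383385, + strand), Calcr (chr6:3764714-3764963, - strand) and Nap1l5 (chr6:58907127-58907376, - strand), all of the same build. Capitals mark CpG dinucleotides.
Peg3-Usp29: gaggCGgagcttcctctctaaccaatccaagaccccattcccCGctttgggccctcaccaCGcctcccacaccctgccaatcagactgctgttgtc
Magel2: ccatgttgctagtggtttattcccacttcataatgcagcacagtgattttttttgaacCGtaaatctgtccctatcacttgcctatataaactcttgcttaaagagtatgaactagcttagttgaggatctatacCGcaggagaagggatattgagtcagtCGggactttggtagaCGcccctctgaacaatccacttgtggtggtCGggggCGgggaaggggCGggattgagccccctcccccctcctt
Mkrn3: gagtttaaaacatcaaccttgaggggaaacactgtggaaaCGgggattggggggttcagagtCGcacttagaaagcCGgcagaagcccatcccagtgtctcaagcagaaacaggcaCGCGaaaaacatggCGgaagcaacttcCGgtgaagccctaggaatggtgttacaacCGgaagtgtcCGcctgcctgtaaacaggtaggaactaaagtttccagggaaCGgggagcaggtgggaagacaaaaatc
Asb4: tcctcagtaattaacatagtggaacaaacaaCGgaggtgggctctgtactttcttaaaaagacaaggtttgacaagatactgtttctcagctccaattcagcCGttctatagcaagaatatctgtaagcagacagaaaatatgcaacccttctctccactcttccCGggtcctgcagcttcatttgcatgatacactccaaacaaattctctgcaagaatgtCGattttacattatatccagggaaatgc
Calcr: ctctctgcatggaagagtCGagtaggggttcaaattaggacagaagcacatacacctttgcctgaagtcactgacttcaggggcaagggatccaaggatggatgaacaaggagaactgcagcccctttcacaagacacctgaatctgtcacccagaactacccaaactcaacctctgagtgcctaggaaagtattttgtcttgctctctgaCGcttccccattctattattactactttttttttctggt
Nap1l5: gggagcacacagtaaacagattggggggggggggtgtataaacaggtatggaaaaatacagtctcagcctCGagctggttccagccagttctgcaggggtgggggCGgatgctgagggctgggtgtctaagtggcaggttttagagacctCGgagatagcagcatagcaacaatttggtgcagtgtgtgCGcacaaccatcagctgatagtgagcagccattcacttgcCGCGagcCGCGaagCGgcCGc
The windows held 7 CpG for Magel2, 10 for Mkrn3, 4 for Asb4, 2 for Calcr and 10 for Nap1l5. Of the 32851 promoter windows in the table, 46.3% held at least 7, 37.8% at least 10, 62.2% at least 4 and 81.2% at least 2 in the 250 bases before the start. Over the 44 windows of the 30 members in the table the median was 11.5 CpG, against 6 over all windows. Windows of paternally expressed members had a median of 8 (21 windows) and those of maternally expressed members 14 (17 windows). These are letters of the reference, and no methylation was measured.

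Whether the hypothalamus stands out was asked with 3 blocks of fractions, coronal 7 to 9, horizontal 6 to 8 and sagittal 5 to 7. Each was set against the other fractions of its series. The labels give the plane and number of a fraction and no brain region. Of 20 hypothalamus markers, such as the peptide genes Oxt, Avp and Hcrt, 18 were tested. Of these, 13 were highest inside the coronal block, 18 inside the horizontal block and 15 inside the sagittal block. The shares over all tested probes were 12.5%, 28.3% and 23.6%. Blocks and markers were chosen with earlier results of these data known, so the counts are no independent evidence of region. All 7 striatum markers were also highest inside the horizontal block, and all 4 tested olfactory bulb markers inside the horizontal and sagittal blocks. The hypothalamus score was the mean over its markers of each value scaled by that marker's mean and SD over 34 fractions. This mean z score was 0.40 to 1.48 in coronal 7 to 9 and -0.73 to 0.55 in the other coronal fractions. Horizontal fraction 1 stood apart from its neighbours. Its hypothalamus score was 0.17 against -0.83 in horizontal 2, Calcr was at -0.82 against -4.79, and 24 of the 34 members were higher in horizontal 1 than in horizontal 2. Without horizontal 1 the same 14 genes as below had their horizontal block above the rest, and the median difference of the 34 genes was 0.34 in place of 0.33.

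A part of the imprinted genes stood above the rest of the series throughout the horizontal and sagittal blocks, and 1 gene did so in the coronal block. In the horizontal series, all values of fractions 6 to 8 lay above all other fractions for 14 of 34 genes, against 5.22% of all tested probes. In the sagittal series, fractions 5 to 7 lay above all others for 14 of 34 genes, against 3.18% of probes. Of these, 10 were shared: Peg3, Usp29, Zim1, Dlk1, Magel2, Peg10, Calcr, Asb4, Nap1l5 and Rasgrf1. In the coronal series, the lead probe of Zim1 was the single one of 34 with this order, against 1.55% of probes, and 23 of the 34 differences were above 0. Other tested probes of the same genes kept the order in 7 of 11 cases in the horizontal series, 7 of 11 in the sagittal series and 0 of 1 in the coronal series. Of all 34 genes, the block mean was higher than the mean of the other fractions for 30 in the horizontal series and 31 within slide 1, which held most of it, and for 26 in the sagittal series and 24 within slide 4. The pituitary list scored 1.64 in horizontal 8 but -0.261 and -1.524 in horizontal 6 and 7. It was highest of the sagittal fractions in fraction 6 but scored -0.002 and -0.211 in fractions 5 and 7. The meningeal list scored 1.83 in horizontal 8, and -0.279 and 0.397 in horizontal 6 and 7. High throughout the horizontal block were the striatum list, at 0.81 or more, and the olfactory bulb list, at 0.73 to 0.81. The part of these lists in these orders was not tested.

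**Figure D1:**
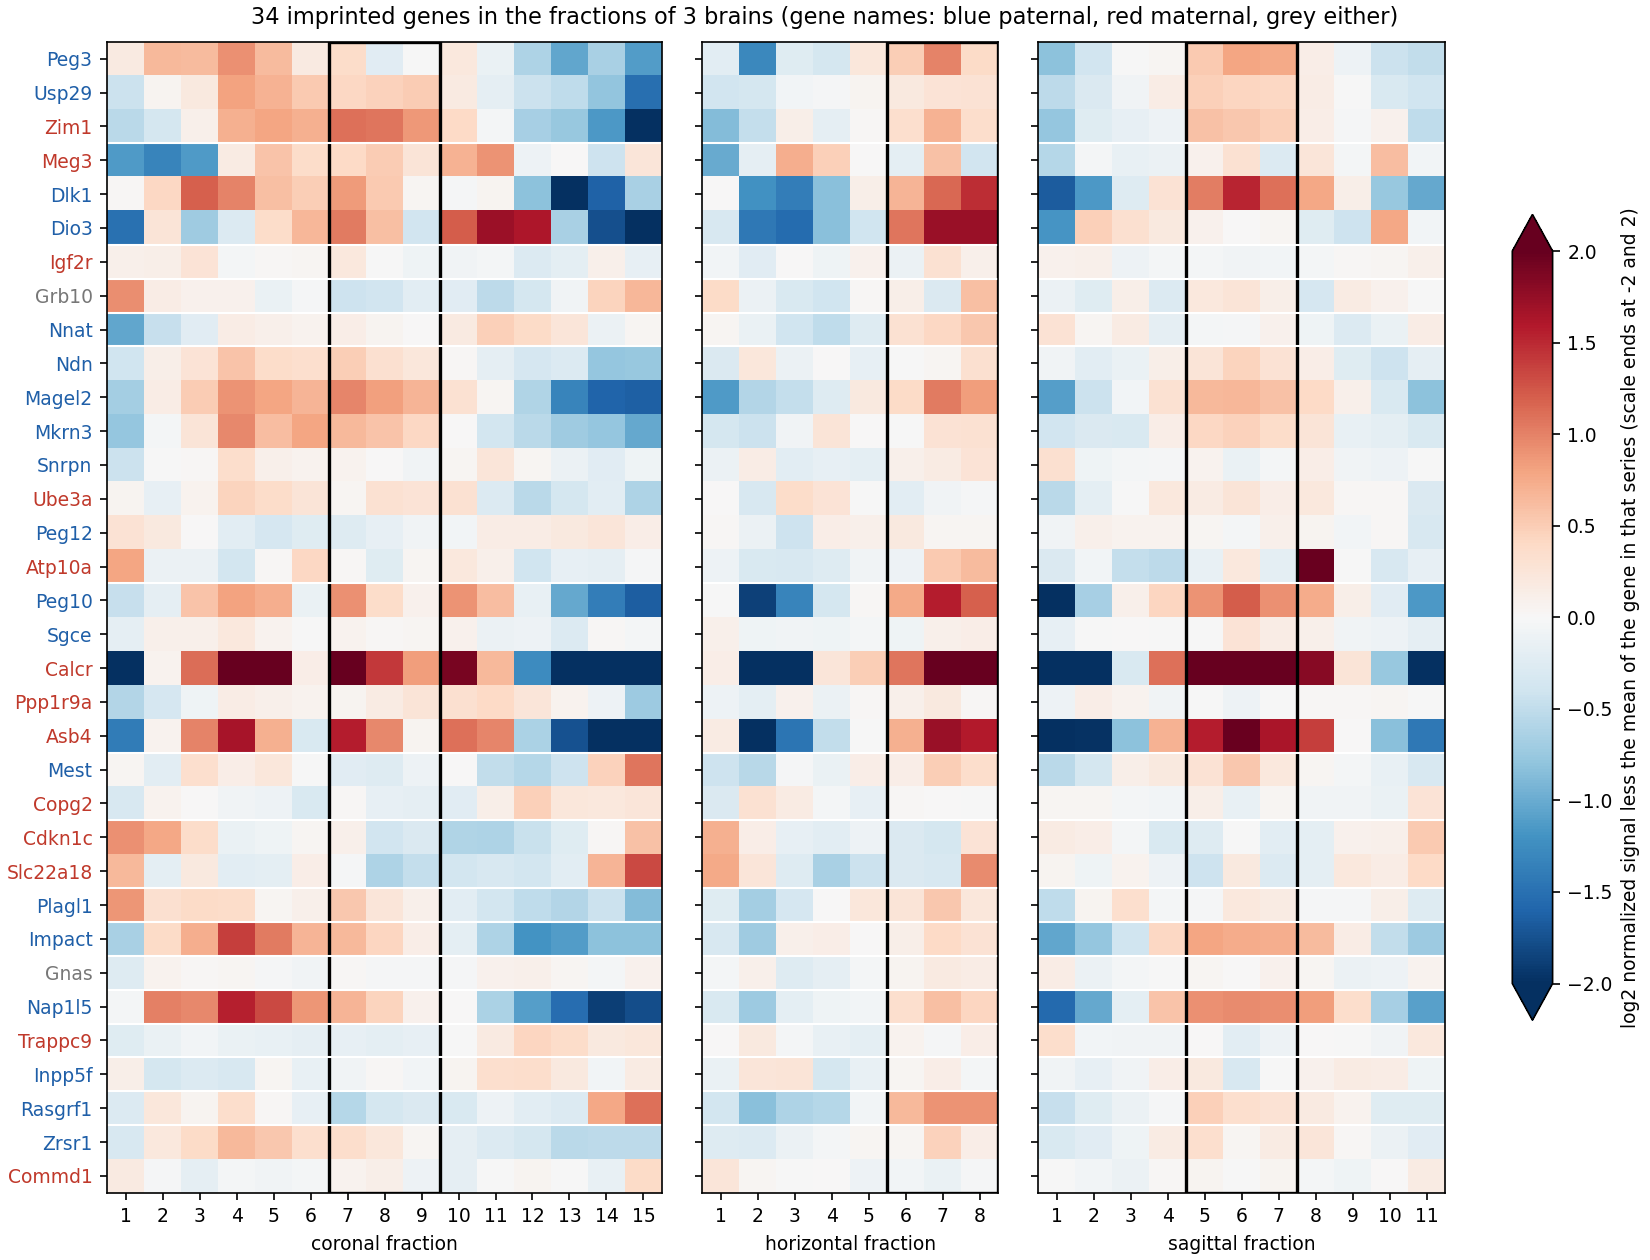
Values of the 34 tested imprinted genes (rows, in order of cluster, white lines between clusters) in 15 coronal, 8 horizontal and 11 sagittal fractions (columns), as log2 normalized signal less the gene's mean in that series. Black frames mark coronal 7 to 9, horizontal 6 to 8 and sagittal 5 to 7, and the colour scale ends at -2 and 2. Calcr, Asb4, Peg10 and Dlk1 are highest in the horizontal and sagittal frames, while the red band of Impact and Nap1l5 in the coronal panel centres on fraction 4.

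By the test of block means across all probes, few of these differences passed. limma with Benjamini-Hochberg adjustment called 0 of 34 imprinted genes in coronal 7 to 9, where 0.0293% of probes were called (10 of 34186; 0.0263% higher and 0.00293% lower). It called 1 of 34 in horizontal 6 to 8, where 0.14% were called (0.108% higher and 0.0322% lower), and 0 of 34 in sagittal 5 to 7, where 0% were called. At an unadjusted p under 0.05, it gave 7 genes in coronal 7 to 9, 5 higher and 2 lower. It gave 11 in horizontal 6 to 8 and 12 in sagittal 5 to 7, all higher. Over all probes the shares in either direction were 15.3%, 9.38% and 6.35%, and the shares higher were 8.6%, 4.53% and 3.36%. The test was as sparing with the hypothalamus markers themselves, of which 0 of 18 passed the adjusted threshold in each block while 13, 16 and 12 had an unadjusted p under 0.05. Their median differences were 2.03, 2.60 and 1.82 on the log2 scale. The median difference of the imprinted genes was 0.14 in coronal 7 to 9, 0.33 in horizontal 6 to 8 and 0.22 in sagittal 5 to 7, against -0.02, -0.02 and -0.04 over all tested probes.

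The gene called was Rasgrf1, a paternally expressed exchange factor that activates Ras and is known for a part in growth and memory. It was at 1.74, 1.99 and 1.98 in horizontal 6, 7 and 8, and the other horizontal fractions had a lowest value of 0.25, a median of 0.51 and a highest of 1.03. The groups did not overlap, and the difference was 1.31 ± 0.23 (SE), or 2.48-fold (limma, adjusted p = 0.00839). Without horizontal 1 the difference was 1.34 (limma, adjusted p = 0.0222), and with the slide as a block it was 1.24 and no longer passed (limma, adjusted p = 0.0582). Horizontal fractions 3 and 4 were on slide 5, and within slide 1 the difference was 1.24. Rasgrf1 did not follow the hypothalamus along the coronal axis, where it lay between 0.88 and 1.16 in fractions 7 to 9 and at its highest, 2.22 and 2.54, in fractions 14 and 15. The olfactory bulb markers also had their highest scores there, 2.51 and 2.84, and this list was also highest inside the horizontal block, at 0.73 to 0.81, and inside the sagittal block, at 0.68 to 0.94. Its part in the horizontal result was not tested.

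The Peg10 cluster on chromosome 6 held both the gene with the highest SD of the list and 1 of the lowest, Sgce. Calcr, the calcitonin receptor, is maternally expressed in the brain, and the SD of its lead probe over 34 fractions was above that of 99.8% of tested probes. Along the coronal axis its values were 1.62 in fraction 4, -0.99 in fraction 6, 0.97 in fraction 7, -0.28 in fraction 9 and 0.78 in fraction 10, and it fell to -4.92 in fraction 14, without exceeding background there. Asb4, a ubiquitin ligase adaptor known from hypothalamic neurons, gave 2.38, 0.42, 2.30, 0.78 and 1.83 in the same fractions 4, 6, 7, 9 and 10. Peg10, a paternally expressed gene derived from a retrotransposon, gave -2.22, -3.15, -2.11, -2.94 and -2.12. All 3 genes thus had the same 3 coronal high points, in fractions 4, 7 and 10, of which the hypothalamus markers shared the block around 7 and a score of 0.55 in fraction 10, but were at -0.41 in fraction 4.

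In the horizontal series, Calcr was at 0.12, 1.09 and 1.16 in fractions 6, 7 and 8 and between -4.79 and -0.46 in the others, with a median of -0.82. In the sagittal series it was at 0.98, 1.19 and 1.02 in fractions 5, 6 and 7, and the others had a median of -2.05 and a highest value of 0.30. The blocks did not overlap the rest, but the spread of the gene was wide and the differences, 2.78 ± 1.37 (SE) and 3.55 ± 1.27, did not pass (limma, adjusted p = 0.54 and 0.67). Asb4 was at 1.39, 2.40 and 2.27 in horizontal 6 to 8, above the highest other value of 0.84, and at 2.00, 2.41 and 2.07 in sagittal 5 to 7, above 1.82. Its differences of 2.14 ± 0.80 and 2.37 ± 0.75 did not pass either (limma, adjusted p = 0.35 and 0.58). Without horizontal 1 the horizontal differences of Calcr, Asb4 and Peg10 were 3.07, 2.38 and 2.05. For Peg10 the differences were 1.88 ± 0.58 and 1.39 ± 0.54 (limma, adjusted p = 0.23 and 0.73). Among the other fractions, Peg10 did not exceed background in horizontal 2 and sagittal 1, nor Calcr in sagittal 1, so that their differences rest in part on values at background.

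**Figure D2:**
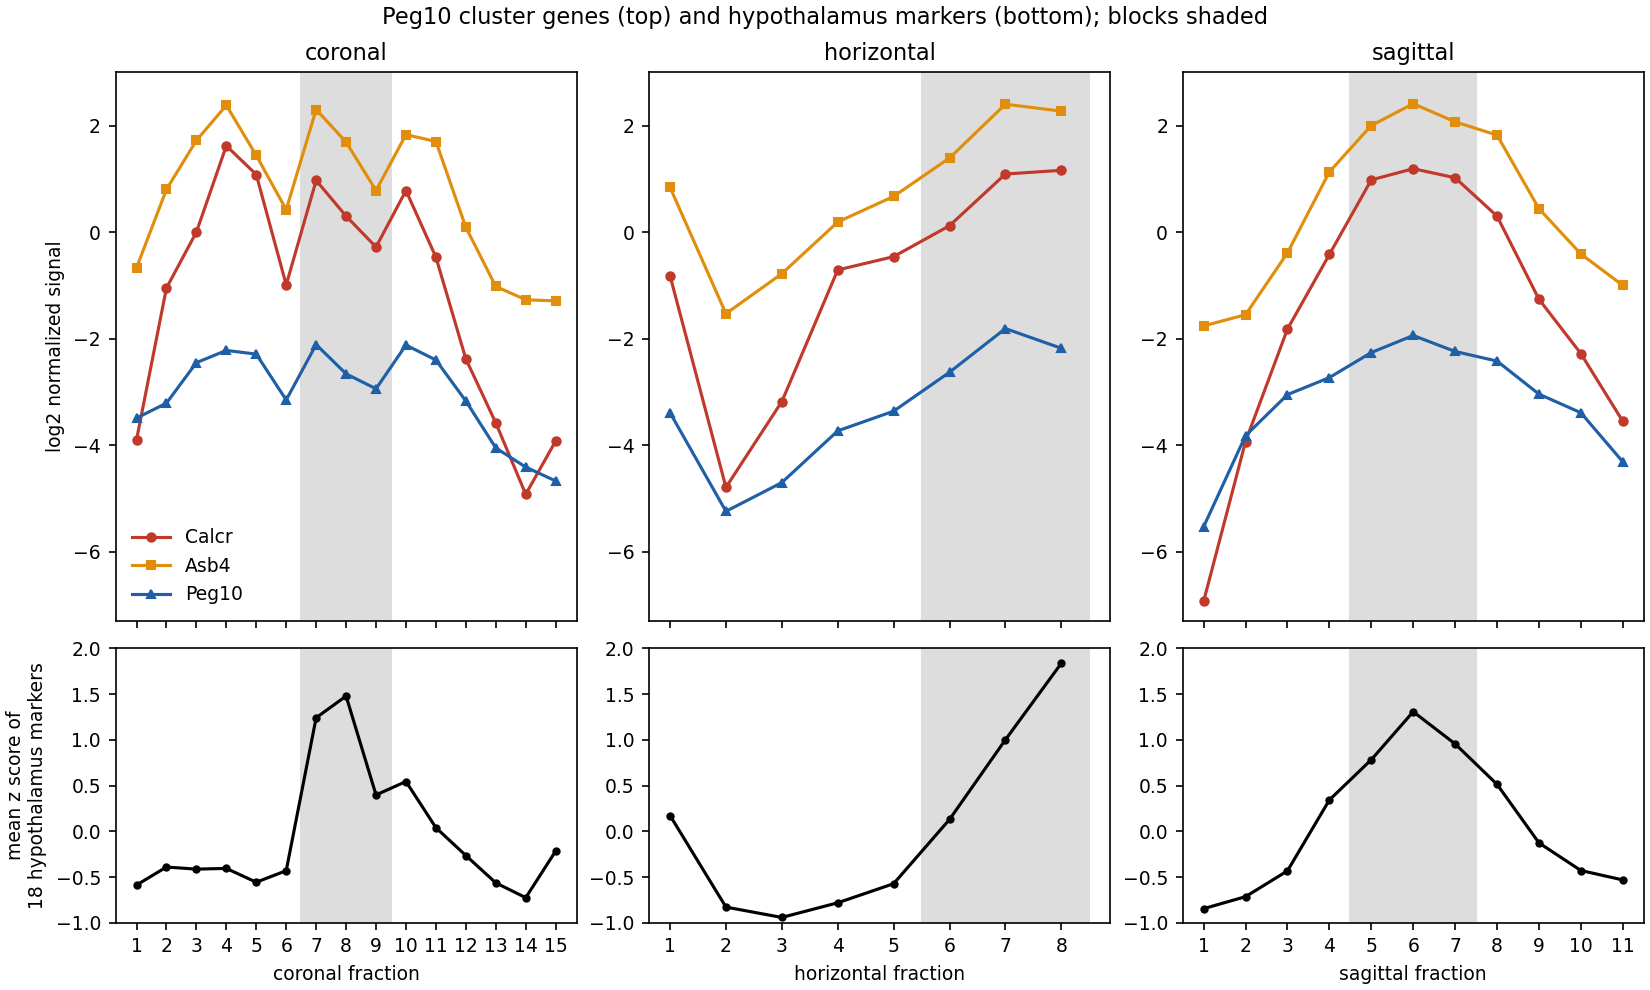
Top row, log2 normalized signal of Calcr, Asb4 and Peg10 in each fraction of the coronal, horizontal and sagittal series. Bottom row, mean z score of 18 hypothalamus markers in the same fractions, with the blocks shaded. The 3 genes rise together in coronal fractions 4, 7 and 10, while the marker score is low in fraction 4 (-0.41) and highest in fraction 8 (1.48).

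The likeness was close. Over all 34 fractions the probe most like Calcr was that of Asb4 (Pearson r = 0.96), followed by Irs4 (0.95), an insulin receptor substrate that is no member of the list, and Peg10 (0.93). The probes most like Asb4 were Calcr, Peg10 and Hmx3 (0.93), a hypothalamus marker. As descriptions over positions that share a brain and a set of arrays, these correlations carry no p-value. The other genes of the cluster behaved differently: Sgce, paternally expressed and coding for epsilon-sarcoglycan, had a coronal range of 0.48, and Ppp1r9a, which codes for the actin-binding protein neurabin, had a range of 1.12 and its highest value in coronal 11.

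The Peg3 cluster on chromosome 7 held the 1 gene whose lead probe was highest throughout the coronal block. Zim1, a maternally expressed zinc finger gene, was at -0.79, -0.82 and -1.02 in coronal 7, 8 and 9. The other coronal fractions had a lowest value of -4.16, a median of -2.08 and a highest of -1.09, in fraction 5. The groups did not overlap, but the difference of 1.26 ± 0.38 did not pass (limma, adjusted p = 0.14). In its second probe, A_55_P1978716, the groups overlapped, with a lowest block value of -2.98 and a highest other value of -2.68, and the difference was 1.36. Usp29, a paternally expressed member of the ubiquitin protease family, was level across fractions 7 to 9 at 3.78, 3.84 and 3.88, below its values of 4.18, 4.07 and 3.89 in fractions 4 to 6. Peg3, a paternally expressed zinc finger gene known from maternal behaviour, was at 1.63, 1.03 and 1.26 there and at 2.18 in fraction 4. In the other series all 3 genes had their blocks above the rest: Peg3 was at 1.54 to 2.15 in horizontal 6 to 8 against at most 1.39 elsewhere, and at 1.62 to 1.88 in sagittal 5 to 7 against at most 1.22. With series means removed, Usp29 correlated more closely with Zim1 (r = 0.95) than with Peg3 (r = 0.79), its head-to-head neighbour, over 34 fractions.

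The Prader-Willi/Angelman cluster, also on chromosome 7, held several kinds of profile. Ndn and Magel2, paralogous MAGE family genes, and Mkrn3, a ubiquitin ligase gene that restrains puberty, are all paternally expressed and correlated with each other at r = 0.84 to 0.90. Magel2 was at 2.41, 2.25 and 2.12 in coronal 7, 8 and 9, the others having a median of 1.53, and it was 2.33 in fraction 4, so that the groups overlapped (difference 1.03 ± 0.42, limma, adjusted p = 0.24). It was at 2.11, 2.76 and 2.56 in horizontal 6 to 8 against at most 1.92 elsewhere, and at 2.17, 2.19 and 2.11 in sagittal 5 to 7 against at most 1.92. Ndn and Mkrn3 were highest in coronal 4, at 4.66 and 1.80, and their sagittal blocks, at 4.34 to 4.52 and 1.15 to 1.25, lay above the rest. Others were flatter or opposed. Snrpn, a splicing protein gene, had a coronal range of 0.79, and Peg12 had a range of 0.63 with negative correlations to Ndn (-0.50) and Mkrn3 (-0.53). Ube3a, the maternally expressed ubiquitin ligase gene of Angelman syndrome, peaked in coronal 4 like Ndn and Mkrn3 and correlated with Mkrn3 at 0.76, Magel2 at 0.66 and Ndn at 0.60. It differed by 0.25 ± 0.18, -0.17 ± 0.20 and 0.25 ± 0.19 in the coronal, horizontal and sagittal blocks (limma, adjusted p = 0.51, 0.87 and 0.78). Atp10a, maternally expressed and coding for a lipid flippase, was at -1.97 in sagittal 8 and between -4.47 and -3.20 in all other fractions.

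In the Dlk1-Dio3 cluster on chromosome 12, Dlk1 and Dio3, both paternally expressed, were high in horizontal 6 to 8. Dlk1, a membrane protein related to Notch ligands, was at 2.97, 3.44 and 3.76 in horizontal 6, 7 and 8, and the other fractions had a median of 1.45 and a highest value of 2.40. In sagittal 5, 6 and 7 it was at 2.92, 3.42 and 3.00, above the highest other value of 2.66. Those differences were 1.76 ± 0.57 and 1.68 ± 0.53 (limma, adjusted p = 0.26 and 0.59), while the coronal block (3.06, 2.73 and 2.25) lay below the maximum of 3.40 in fraction 3. Dio3, the deiodinase that inactivates thyroid hormone, was at -2.39, -1.73 and -1.73 in horizontal 6 to 8 and at most -3.78 elsewhere, a difference of 2.41 ± 0.65 (limma, adjusted p = 0.13). Without horizontal 1 the differences were 1.93 for Dlk1 and 2.56 for Dio3. Dio3 was not high in sagittal 5 to 7, at -2.64, -2.71 and -2.68, next to a median of -2.65 in the other sagittal fractions. Along the coronal axis it was highest in fractions 11 and 12, at -1.50 and -1.59. The probes most like Dio3 over 34 fractions, those of Bpifb3 (r = 0.82), Akap5 (0.82) and Ftcd (0.81), were less close to it than Asb4 was to Calcr. The lead probe of Meg3, the maternally expressed long non-coding RNA of the cluster, was lowest in coronal 1 to 3, at 1.33 to 1.52. It was at 2.82 or more from fraction 4 to fraction 11. Probe A_55_P2033407 was also lowest in coronal 2, at -1.66. Probe A_52_P196568 was lowest in coronal 14 instead, at -1.01, and its r with the lead probe was 0.69. The r of the lead probe with Dlk1 was -0.01.

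Coronal fraction 4, not the hypothalamic block, held the most maxima. The lead probes of 12 of 34 genes were highest there (Peg3, Usp29, Ndn, Mkrn3, Snrpn, Ube3a, Sgce, Calcr, Asb4, Impact, Nap1l5 and Zrsr1), against 6.34% of all tested probes. Fractions 7 to 9 held the maxima of 3 genes (Zim1, Magel2 and Peg10), against 12.5% of probes. Fraction 4 was above each of fractions 7 to 9 for 19 of 34 genes, against 28.1% of probes. Of the hindbrain markers, Tph2, of serotonin neurons, was highest in fraction 5, while Hoxb5, Hoxc4, Hoxb3 and Hoxa5 were highest in fraction 2. The hindbrain list as a whole scored 1.15 in fraction 4, below its values in fractions 2 and 3, and its part in the maxima was not tested. In horizontal 6 to 8 lay the maxima of 27 of 34 genes (28.3% of probes) and in sagittal 5 to 7 those of 20 (23.6% of probes). Without horizontal 1 the horizontal count was 28.

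**Figure D3:**
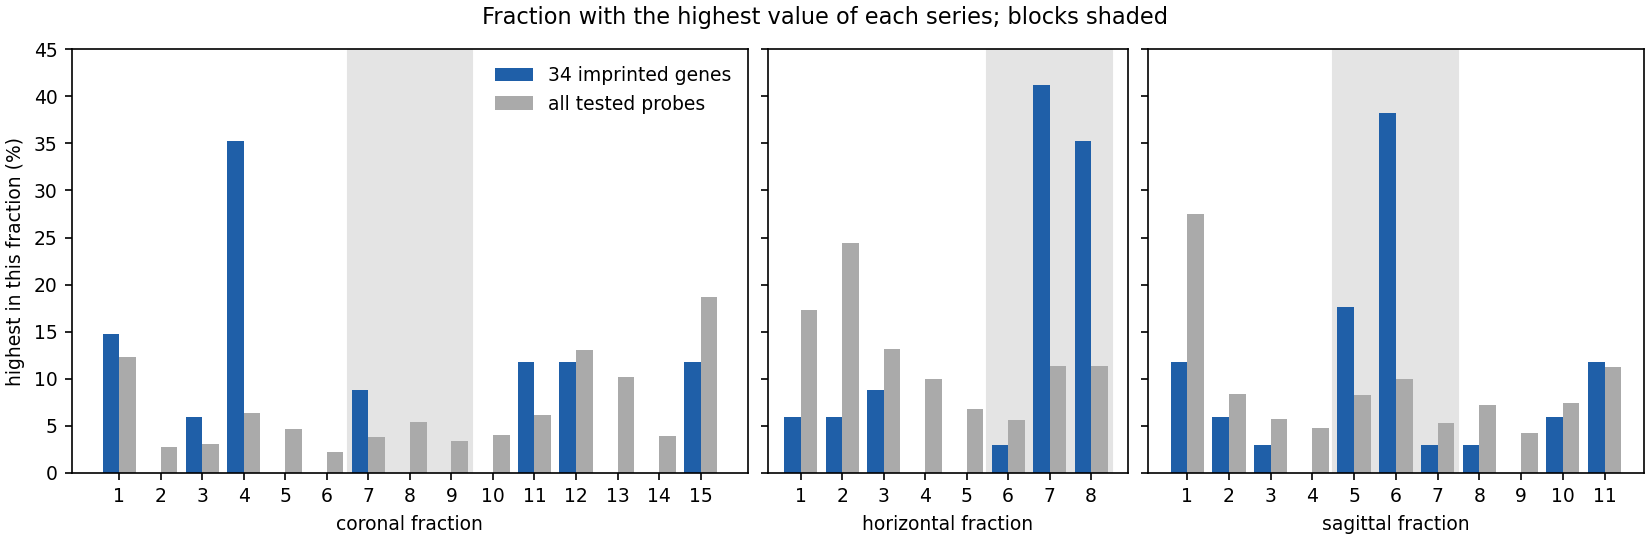
Share (%) of the 34 imprinted genes (blue bars) and of all tested probes (grey bars) whose highest value in a series fell in each fraction, with the blocks shaded. The blue bars are tallest in coronal 4 (12 genes), horizontal 7 (14 genes) and sagittal 6 (13 genes).

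Impact, Nap1l5 and Zrsr1, paternally expressed genes of 3 separate loci, gave the clearest form of this profile. Nap1l5, which codes for a protein related to nucleosome assembly factors, was at 3.64 in coronal 1, rose to 5.22 in fraction 4, was at 4.35, 4.12 and 3.75 in fractions 7, 8 and 9, and ended at 1.79 and 1.90 in fractions 14 and 15. Impact, a regulator of translation under stress, was at 4.12 in fraction 4, at 3.39, 3.17 and 2.88 in fractions 7 to 9, and at 1.55 in fraction 12. Zrsr1, a splicing factor gene within an intron of Commd1, went from 2.76 in fraction 4 to 1.57 in fraction 13, and Commd1 itself, maternally expressed, had a coronal range of 0.57. Coronal 7 to 9 were also compared with fractions 10 to 15, a comparison chosen after the profiles were seen. It called 9 of 34 genes higher (Usp29, Zim1, Ndn, Magel2, Mkrn3, Plagl1, Impact, Nap1l5 and Zrsr1), against 8.72% of probes. It called 2 lower (Peg12 and Trappc9), against 11.9%. Mkrn3 differed by 1.12 ± 0.18 (limma, adjusted p = 0.000653) and Zim1 by 1.76 ± 0.35 (limma, adjusted p = 0.00215). Against fractions 1 to 3 and 10 to 15 together 5 were called higher (5.32% of probes) and 1 lower (3.9%). Against fractions 1 to 6 limma called 0 of 34 in either direction, where 4.8% of probes were higher and 2.97% lower. The smallest limma adjusted p of a member was that of Zim1, at 0.0688.

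**Figure D4:**
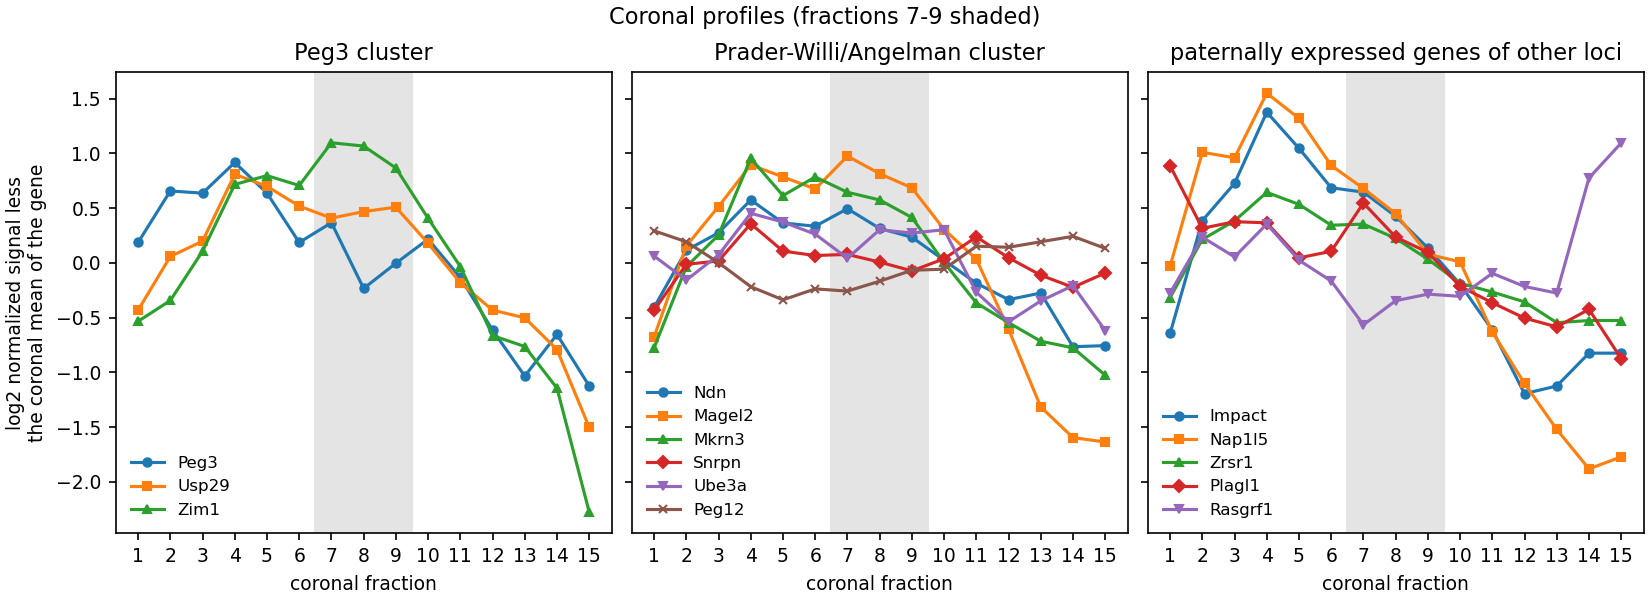
Log2 normalized signal in coronal fractions 1 to 15, less the coronal mean of each gene, for the Peg3 cluster, 6 genes of the Prader-Willi/Angelman cluster and 5 paternally expressed genes of other loci; fractions 7 to 9 are shaded. Most lines peak in fraction 4 and fall from fraction 7 to fraction 15, Zim1 and Magel2 peak in fraction 7, and Rasgrf1 is highest in fraction 15.

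Coronal fractions 1 and 15 held the maxima of 5 and 4 of the 34 genes, against 12.3% and 18.7% of all tested probes. Cdkn1c, a maternally expressed inhibitor of the cell cycle, was at 5.23, 5.09 and 4.69 in coronal 1, 2 and 3. It lay between 3.70 and 4.42 in fractions 4 to 14 and was at 4.91 in coronal 15. Slc22a18, a maternally expressed transporter gene of the same cluster, was highest in coronal 15 (0.30), and Grb10, an adaptor of insulin signalling whose expressed copy differs between neurons and other cells, in coronal 1 (1.21). The score of 8 meningeal and fibroblast markers was also highest in coronal 15, at 2.04, and next highest in coronal 1, at 1.84. In coronal 2 and 3, where Cdkn1c was still high, this score was 0.27 and -0.17. Within series, its r with Slc22a18 was 0.90 (15 coronal fractions), 0.93 (8 horizontal) and 0.88 (11 sagittal). With Cdkn1c it was 0.80, 0.67 and 0.84, and with Grb10 0.86, 0.74 and 0.09. The endothelial and pericyte list gave r of 0.78, 0.60 and 0.87 with Slc22a18, 0.70, 0.84 and 0.88 with Cdkn1c, and 0.85, 0.31 and -0.06 with Grb10. The part of either list in these levels was not tested.

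Other members hardly varied. Sorted by the SD over 34 fractions, 9 of the 34 lay below the 25th percentile of tested probes (Igf2r, Snrpn, Peg12, Sgce, Copg2, Gnas, Trappc9, Inpp5f and Commd1), and 8 at or above the 90th (Zim1, Dlk1, Dio3, Magel2, Peg10, Calcr, Asb4 and Nap1l5). Nnat, a paternally expressed proteolipid gene, lay between, at the 49.6th percentile, and its horizontal block, at 6.81, 6.92 and 7.05, was above the highest other value of 6.54. Mest, also paternally expressed, was highest in coronal 15 at 3.08. Plagl1, a zinc finger gene, was highest in coronal 1 at 4.92.

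Probes of 1 gene did not always tell the same story. Of the 3 Gnas probes, the lead probe A_55_P2081313 stayed within 6.92 to 7.42 over all fractions, the lowest SD percentile of the list (0.7). The second, A_55_P2081323, rose from 4.13 in coronal 1 to 6.07 in coronal 4 and fell to 3.88 in coronal 15, and the third, A_52_P190394, was well above background in 20 of 34 fractions, with its highest value, -1.37, also in coronal 4. Gnas makes several transcripts that differ in the copy they are expressed from, and which of them each probe reads was not worked out here. Of the Snrpn probes, A_55_P1990116 had a coronal range from 1.26 to 2.57, against 4.57 to 5.36 for the lead probe, and r between them was 0.41. Both probes of genes with large spans correlated at r = 0.99 for Dlk1 and Nap1l5, 0.95 for Zim1, 0.92 for Asb4 and Rasgrf1 and 0.91 for Peg10. Even so, the second probe overlapped between block and other fractions for Nap1l5 in the horizontal and sagittal series, for Asb4 in the horizontal series and for Rasgrf1 in the sagittal series. The second Asb4 probe, A_55_P2117380, was well above background in 22 of 34 fractions.

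**Figure D5:**
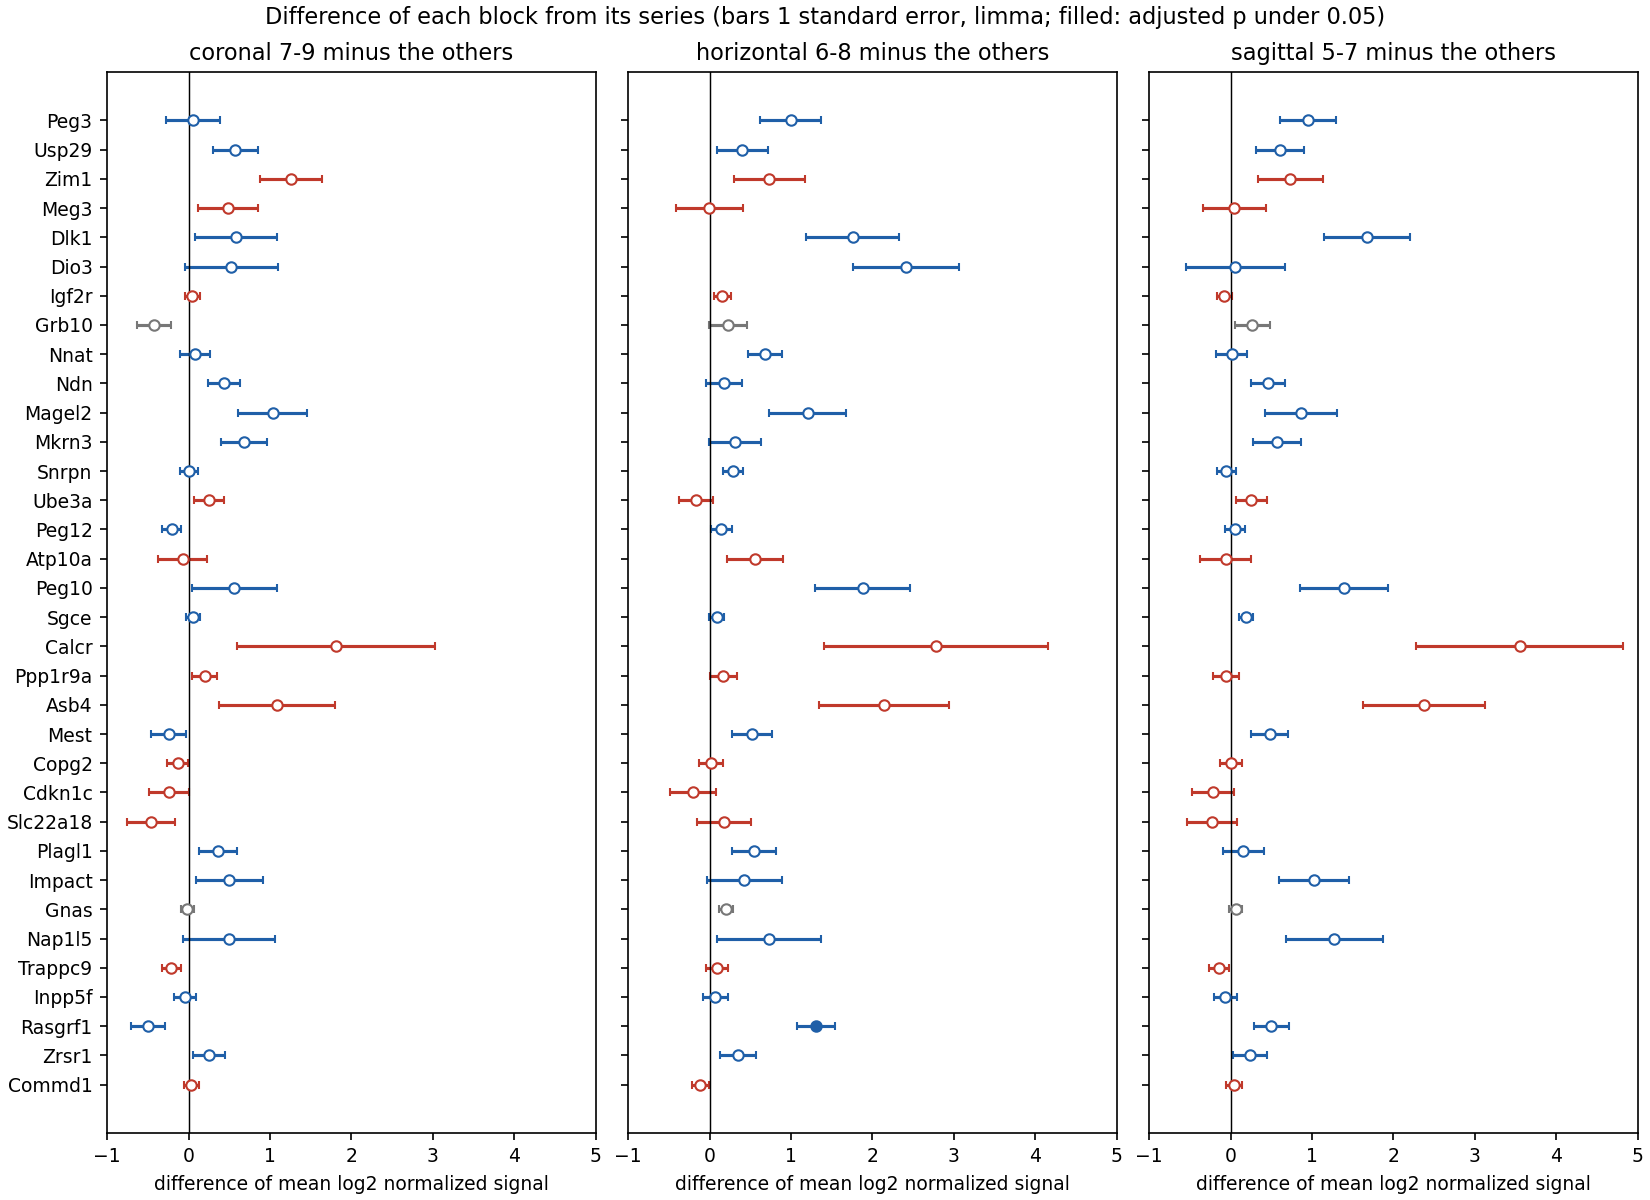
Difference of mean log2 normalized signal between each block and the other fractions of its series for the 34 genes, with bars of 1 standard error from limma; blue marks paternally, red maternally and grey variably expressed genes. The filled point, Rasgrf1 in horizontal 6 to 8 at 1.31, is the difference with an adjusted p under 0.05.

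Genes were grouped by the copy listed as expressed, which was not measured in these brains. The 19 tested genes listed as paternal had median block differences of 0.36 (coronal), 0.52 (horizontal) and 0.48 (sagittal). Those of the 13 genes listed as maternal were 0.05, 0.16 and 0.01. The horizontal medians without horizontal 1 were 0.47 and 0.16. Blocks lay above all other fractions for 11 of 19 paternal genes and 3 of 13 maternal genes of the horizontal plane, and likewise for 11 and 3 along the sagittal axis. Over all tested probes the shares were 5.22% and 3.18%. The 3 maternal genes were Zim1, Calcr and Asb4 in both series. The difference between the copies was not tested, since genes of a cluster share their control region and their profiles. Correlations with series means removed had a median of 0.39 over the 171 pairs of paternal genes, -0.01 over the 78 pairs of maternal genes and 0.13 over the 247 mixed pairs. Within clusters the median was 0.41 (40 pairs, from -0.53 to 0.96) and between clusters 0.14 (521 pairs). Among pairs of separate clusters, Impact and Nap1l5, on chromosomes 18 and 6, were the most alike (0.95).

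The imprinted genes followed the hypothalamus score in both of the other planes more than along the coronal axis, and other lists did as well. The median r of the 34 genes with the hypothalamus score was 0.20 over 15 coronal fractions, 0.62 over 8 horizontal fractions (0.70 without horizontal 1) and 0.62 over 11 sagittal fractions, against 0.01, -0.04 and -0.14 over all tested probes. An r of 0.7 was reached by 0 genes along the coronal axis, by 12 of the horizontal plane and by 17 along the sagittal axis, against 0.506%, 5.41% and 9.18% of all tested probes. The horizontal count without horizontal 1 was 17. Neither the share of all tested probes nor the other lists were recomputed without that fraction, so this rise has no background beside it. Asb4 was at 0.53, 0.87 and 0.98. In the horizontal series the median r was as high with the striatum list (0.67) and the olfactory bulb list (0.67) and was -0.74 with the cortex list. In the sagittal series it was 0.63 with the thalamus list, 0.62 with the olfactory bulb list, 0.62 with the cerebellum list, 0.57 with the midbrain list and -0.70 with the cortex list. The thalamus, olfactory bulb, cerebellum and midbrain lists themselves scored 0.56 to 0.98 in sagittal 5 to 7, so that their parts cannot be told apart there. Along the coronal axis the thalamus list had the highest median r (0.39) and the endothelial list the lowest (-0.49).

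A second list of 36 other imprinted genes, 32 of them tested, was set beside it without a test between the lists. limma called 0 of 32 in each block, where 0.0293%, 0.14% and 0% of all probes were called. At an unadjusted p under 0.05 it gave 5 in coronal 7 to 9 (15.6%, against 15.3% of all probes). It gave 5 in horizontal 6 to 8 (15.6%, against 9.38%) and 2 in sagittal 5 to 7 (6.25%, against 6.35%). The median differences of the 32 genes were -0.01, 0.22 and 0.00, and 15, 25 and 16 differences were above 0. Maxima lay in the coronal, horizontal and sagittal blocks for 4, 20 and 12 of the 32 genes, against the same 12.5%, 28.3% and 23.6% of probes. Blocks lay above all other fractions for 1, 6 and 3 of the 32 genes, against the same 1.55%, 5.22% and 3.18% of probes.

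The sagittal profiles of several regional members were nearly mirror images about fraction 6. The mean absolute difference between mirrored fractions (5 with 7, 4 with 8, out to 1 with 11) was 0.05 of the sagittal range for Usp29, 0.08 for Magel2, 0.10 for Peg3 and 0.11 for Mkrn3 and Peg10. The median of this ratio was 0.17 over the 34 genes and 0.26 over all tested probes. Other regional members lay near the median of the 34 genes, with Zim1 at 0.16 and Asb4 and Rasgrf1 at 0.17. For Calcr, mirrored fractions differed on average by 1.27 in a range of 8.13, whose lower end, in sagittal 1, did not exceed background. Dio3 and Meg3 were less symmetric, at 0.27 and 0.33.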

How the data were processed

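Total RNA of each fraction was labelled with Cy3 and hybridised to 1-colour Agilent SurePrint G3 mouse arrays (design 028005). The authors deposited scanner tables from Feature Extraction 10.10.1.1, whose processed signals are background-corrected intensity values on a linear scale. They also deposited a log2 table of 43199 probes, which equals log2 of the processed signal less 1 constant per array close to the 75th percentile (99.92% of values within 0.02) and has column medians of -2.44 to -2.24.

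Outlier and control spots were left out, spots of a probe averaged, and each array's 75th percentile subtracted on the log2 scale. Probes were named through RefSeq accessions of the GRCm38.p6 annotation, in which the accession of the H19 probe was not found. Detected means that most spots of the probe were flagged well above background, and a probe was tested if every series held 1 or more fractions in which it was detected. All 34 fractions entered 1 limma fit (limma 3.58.1, R 4.3.3) with 6 groups, each series inside and outside its block, with Benjamini-Hochberg adjustment over 34186 probes, a threshold of 0.05 and two-sided tests. For the coronal contrast the fit was tested on simulated data, with independent noise and no gradient between neighbouring fractions. Of 100 planted changes of 1 on the log2 scale it recovered 56. Of 100 planted changes of 2 it recovered 91, and there were 8 false calls. Correlations, marker scores and figures used Python 3.11.15. Neighbouring fractions are not independent samples.

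The 37 genes, the blocks and the marker lists were chosen with earlier results of these data known. All 37 genes were eligible to be named, each by its lead probe (most fractions detected, ties by the highest median); for the 3 genes with the largest coronal range the 3 most alike probes were also named. Alternatives were another scaling, normexp, the deposited log2 table, other filters, the slide as a block, separate fits, limma-trend, other blocks, other lead probes and fractions left out.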

Additional observations from a re-analysis of the deposited data

Results flagged for a closer look

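Commd1 was singled out in the horizontal series, where fraction 1 was at 3.73 and the other fractions lay between 3.36 and 3.53. The gap to the nearest fraction was 0.554 of the whole range, more than the critical value (0.526) that Dixon gives for a group of this size. It was the only such case in the 34 lead probes searched, and chance alone gives about 1 in 20 groups.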

How the results depend on the processing

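The number of imprinted genes called in sagittal 5 to 7 was 0 under every alternative run, limma-trend included, and in coronal 7 to 9 it was 0 except in comparisons with fewer fractions, chosen after seeing the data: 11 against coronal 10 to 15 and 6 against coronal 1 to 3 and 10 to 15 (Usp29, Zim1, Ndn, Magel2 and Mkrn3 higher, Peg12 lower). In horizontal 6 to 8 the count of 1 became 3 with normexp (Dio3, Peg10 and Rasgrf1). It became 0 with the slide as a block, with each series fitted by itself, without the arrays of slide 5 and with the narrower block horizontal 7 to 8. Leaving out each fraction of the block in turn gave 0 to 1, and the call of Rasgrf1 was lost without horizontal 7 (adjusted p = 0.087) and without horizontal 8 (adjusted p = 0.127). Over its 17 alternatives the difference of Rasgrf1 was 1.20 to 1.55, with limma adjusted p from 0.00533 to 0.272, past the threshold in 11. Fits by series and those without arrays hold fewer fractions, and otherwise the cause of the lost calls was not tested. Over the whole table, the 10 probes called in coronal 7 to 9 became 2 with array median scaling and 21 with the slide as a block, and the 48 called in horizontal 6 to 8 became 26 with array median scaling and 109 with normexp. Of the called probes, 9 of 10 were higher in coronal 7 to 9, against 100% with array median scaling and 76.2% with the slide as a block, and 77.1% were higher in horizontal 6 to 8, against 63.4% with the slide as a block. Counts of maxima, counts of blocks above all other fractions and the median correlations with the hypothalamus score kept their direction under the alternatives run. Array median scaling moved the median of all probes in the sagittal contrast to -0.12, and normexp moved it to -0.10 (coronal) and -0.11 (sagittal). No paired analysis was possible because fraction numbers are positions along different axes of 3 mice and do not pair. Array number limits the precision, since each position was measured once.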
